A study of Mus musculus with 2 samples.

Results

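The primary cilium is a single microtubule-based projection of most vertebrate cells, and 51 genes for its transport machinery and its gate were followed in whole mouse embryos. The genes were chosen by name: subunits of the intraflagellar transport (IFT) complexes, their motors, the Bardet-Biedl syndrome (BBS) proteins, Arl GTPases, transition zone proteins and 3 ciliary proteins of Hedgehog signalling. All 51 were found by Ensembl identifier among the 34624 loci of the files. Of them, 44 had a locus of their own, and 7 shared one with overlapping genes that the authors had merged into it, called joined here. Total RNA came from untreated whole embryos of CBA/Ca × C57Bl/10 crosses, taken at 10.5 days post coitum. The series holds this 1 group with 2 replicates, so levels are described and no conditions are compared. Whether a replicate came from a single embryo or a pool is not stated in the labels.

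Cilia are built and maintained by IFT trains, which kinesin-2 carries from base to tip and dynein-2 carries back. The BBSome, a coat-like complex, moves membrane proteins out of the cilium, and the transition zone at its base controls what enters. In the embryo the cilium is where vertebrate Hedgehog signals are read, and mutations of these genes cause ciliopathies that affect limb, neural tube, kidney and eye.

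Levels are RPKM (reads scaled to transcript length and library size) in replicate 1 and then replicate 2. Summed counts were 18318181 and 117522171, and the members took 0.278% and 0.198% of them. Member loci held 25 to 6212 reads in replicate 1 and 110 to 29908 in replicate 2, and 48 of the 51 had 100 reads or more in both. The 14 tissue markers tested, among them neural Nes (284 and 318 RPKM), cardiac Actc1 (95.96 and 96.5) and mesenchymal Prrx1 (80.8 and 62.1), all reached 1 RPKM in both replicates. Some of them differed between the replicates. The primitive red cell globins Hbb-y (1746 and 6474 RPKM, log2 ratio 1.89) and Hba-x (1284 and 3219, 1.33) were higher in replicate 2. Of the epithelium and endoderm markers, Afp (196 and 82.0, -1.24) was lower there and Epcam (15.7 and 22.5, 0.49) was higher. Of 5 trophoblast and decidua markers 1 passed, Prl8a2 (1.23 and 6.38 RPKM), Tpbpa and Psg21 had 0 reads in both replicates, and the list summed to 1.65 and 7.22 RPKM. In such a bulk sample, fewer cells of a type and less RNA per cell cannot be told apart.

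Nearly all members were expressed, at middle levels. A minimum of 1 RPKM in both replicates was reached by 50 of 51 members (98.04%), against 49.4% of all loci and 65.1% of protein-coding loci. At 10 RPKM it was 42 of 51 (82.4%), against 29% and 42.2%. At 50 RPKM it was 6 of 51 (11.8%), beside 11.6% and 16.4%, a share near the background. The median member stood at 24.2 and 18.6 RPKM. Over protein-coding loci with a mean of 1 RPKM or more the median was 24.3 and 17.6. With RPKM as deposited the members thus lay near the middle of expressed protein-coding loci, but not under another length given below.

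**Figure D1:**
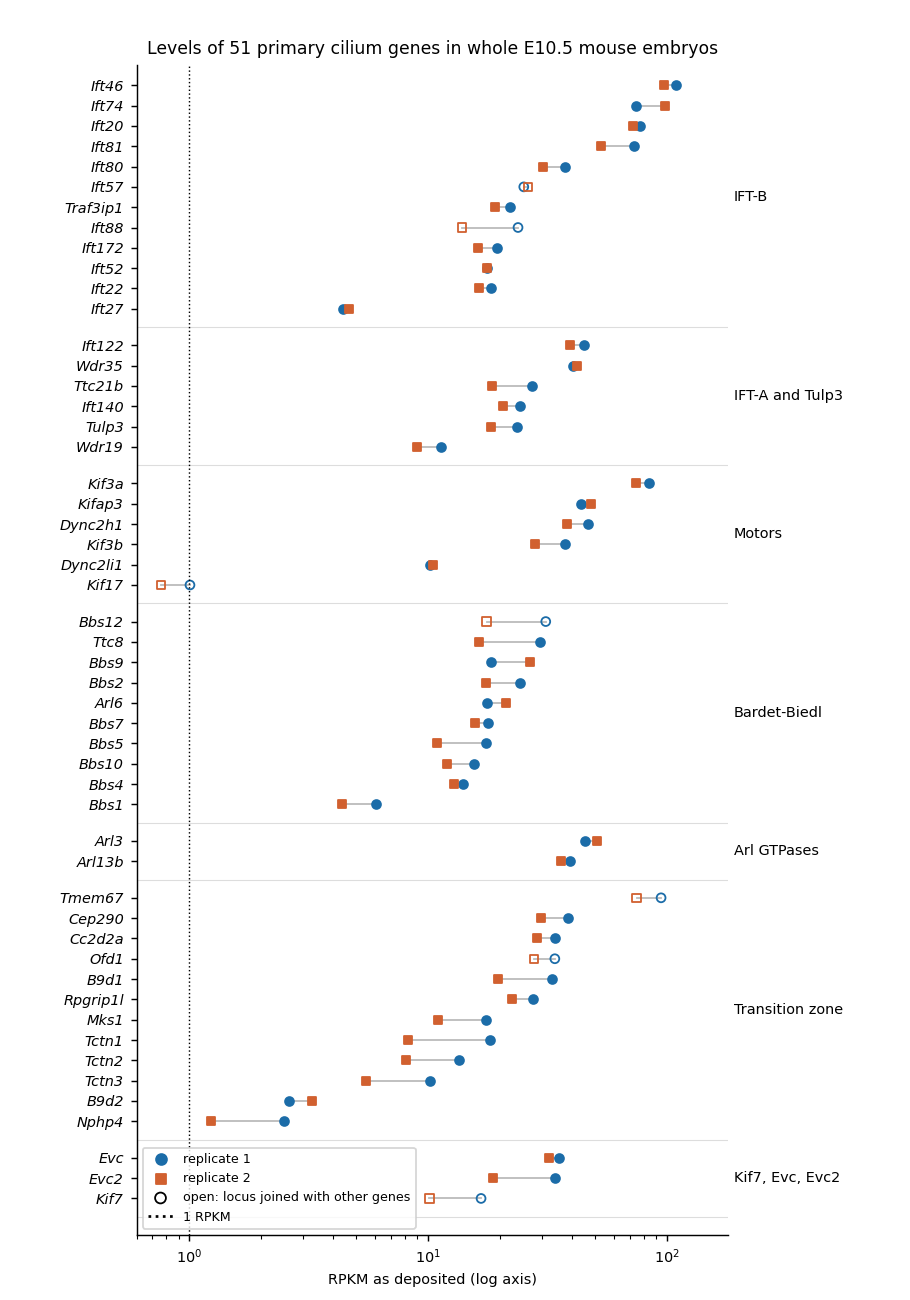
RPKM of each of the 51 members (log axis) in replicate 1 (circles) and replicate 2 (squares), grouped by role, with open symbols for loci joined with other genes. Of the members, 50 lie at or right of the dotted line at 1 RPKM in both replicates, and Kif17 is the exception.

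The IFT-B complex, which drives transport towards the tip, held the highest levels of members with a locus of their own. All 12 subunits among the members passed the minimum, with a median of 24.4 and 22.6 RPKM. Further IFT subunits are in a list of other transport genes given below. Ift46, a core subunit, was highest at 109 and 97.5 RPKM. Ift74 and Ift81, which pair with each other and bind tubulin, stood at 73.8 and 98.3 and at 72.8 and 53.1 RPKM. Ift20, which also acts at the Golgi in the delivery of membrane proteins, was at 76.7 and 71.9. These 4 genes lay above the other IFT-B members in both replicates, and neighbours in the order Ift46, Ift74, Ift20 and Ift81 had overlapping values. Ift80 (37.4 and 30.2) and Ift57 (25.1 and 26.2, joined with Gm15518) followed.

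The remaining IFT-B members lay close together except for 1. Ift88, the core subunit altered in the classic mouse ciliopathy model, was at 23.8 and 13.8 RPKM in a locus joined with its antisense gene Ift88os, so the reads cannot be given to Ift88 alone. Traf3ip1 was at 21.96 and 19.1, Ift172 at 19.4 and 16.2, Ift52 at 17.6 and 17.7 and Ift22 at 18.2 and 16.4. The last 4 lay within 17.6 to 21.96 RPKM in replicate 1 and 16.2 to 19.1 in replicate 2. Ift27, a Rab-like GTPase subunit that works with the BBSome, was far below the other IFT-B members at 4.37 and 4.65 RPKM, on 52 and 314 reads (exact Poisson 95% intervals 3.27 to 5.74 and 4.15 to 5.19 RPKM, which cover counting error only).

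In the IFT-A complex, which is needed for transport back to the base and for the entry of membrane receptors, all 5 subunits among the members and the cargo adaptor Tulp3 passed. Ift122 (44.8 and 39.4 RPKM) and Wdr35 (40.3 and 41.8) were highest and did not separate from each other. Ttc21b (27.2 and 18.5), Ift140 (24.1 and 20.6) and Tulp3 (23.5 and 18.2) formed a middle group with overlapping values. Wdr19 was lowest, at 11.3 and 8.95.

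Among the motors, the kinesin-2 of general ciliogenesis was abundant and the other kinesin-2 was near the minimum. Kif3a stood at 83.7 and 74.5 RPKM, its motor partner Kif3b at 37.5 and 27.9, and the accessory subunit Kifap3 at 43.5 and 48.1. Kif17, a homodimeric kinesin-2 best known from sensory cilia, had 1.005 and 0.761 RPKM on 25 and 110 reads, and its locus also holds Sh2d5. It was the 1 member below the minimum in replicate 2, with a counting interval of 0.625 to 0.917 RPKM there. For dynein-2, the heavy chain Dync2h1 was at 46.7 and 38.0 RPKM and the light intermediate chain Dync2li1 at 10.2 and 10.4.

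Most BBS genes lay between 10 and 30 RPKM, with Bbs1 below. All 10 passed, with a median of 17.7 and 15.99 RPKM, and none reached 20 RPKM in both replicates. Of the BBSome subunits, Ttc8 (29.5 and 16.3), Bbs2 (24.2 and 17.5), Bbs9 (18.4 and 26.8), Bbs7 (17.8 and 15.7), Bbs5 (17.5 and 10.9) and Bbs4 (14.02 and 12.8), neighbours in the order of the mean had overlapping values. Bbs1 was below them at 6.05 and 4.34. Arl6, the GTPase that brings the BBSome to membranes, was at 17.7 and 21.2, and the chaperonin-like assembly factor Bbs10 at 15.6 and 11.99. Bbs12, its partner in assembly, read 31.0 and 17.5, but its locus also holds Fgf2 and Cetn4. Of the other GTPases, Arl3, which releases lipidated cargo inside the cilium, was at 45.5 and 50.8 RPKM, and its activator Arl13b at 39.3 and 36.0.

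Transition zone genes differed widely in level, and all 12 passed. The highest value, Tmem67 (94.4 and 74.5), belongs to a locus joined with Rbm12b2 and Gm11842, so it cannot be read as Tmem67 alone. Cep290, a large protein linking membrane and microtubules, was at 38.6 and 29.7 RPKM, Cc2d2a at 33.8 and 28.7 and Rpgrip1l at 27.5 and 22.3. Ofd1, a centriolar protein, read 33.9 and 27.8 in a locus joined with Trappc2. Of the proteins with a B9 domain, B9d1 was at 32.8 and 19.6, Mks1 at 17.4 and 11.01 and B9d2 only at 2.60 and 3.25, the last on 27 and 192 reads. The tectonics were ordered Tctn1 (18.1 and 8.23), Tctn2 (13.5 and 8.05) and Tctn3 (10.1 and 5.49) in both replicates, but neighbours in this order had overlapping values. Nphp4, which works with Rpgrip1l, was lowest at 2.48 and 1.23 RPKM, the nearest member above the minimum.

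The 3 ciliary proteins of Hedgehog signalling were at middle levels. Evc and Evc2, which bind each other and pass on the signal from Smo, stood at 35.2 and 32.1 and at 34.0 and 18.6 RPKM. Kif7, a kinesin that organizes Gli proteins at the ciliary tip, read 16.6 and 10.1, joined with the antisense gene 9330171B17Rik.

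Some proteins that bind each other, and some paralogues, differed in transcript level. Of 27 such pairs, 10 (37.0%) differed beyond the replicate spread: the log2 ratio of their levels had the same sign in both replicates, and its mean exceeded 2 SD of the log2 ratio between replicates at loci of their levels (0.96 to 1.34). The same rule was met by 47.5% of all pairs of members, 69.2% of all pairs of protein-coding loci with a mean of 1 RPKM or more and 70.3% of all pairs of such loci, so a difference beyond the spread was not particular to the partners. With 2 values a gene, no exact two-sided permutation test can give a p below 0.333, so none was used. Log2 differences between genes were taken after adding 1 RPKM, which makes those of low genes too small.

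Kif3a exceeded Kif17 by 5.41 ± 0.01 (SD, n = 2, Kif17 joined), and Cep290 exceeded Nphp4 by 3.65 ± 0.19. B9d1 exceeded its partner B9d2 by 2.75 ± 0.68. The dynein chains Dync2h1 and Dync2li1 differed by 1.93 ± 0.22, and the small GTPase-like subunits Ift22 and Ift27 by 1.73 ± 0.15. In IFT-A, Wdr19 against Wdr35 was -1.93 ± 0.25, and in the BBSome Bbs1 against Bbs9 was -1.92 ± 0.65. Ift20 against Ift57 (1.499 ± 0.11, joined), Arl3 against Arl6 (1.27 ± 0.07) and Mks1 against Tmem67 (-2.51 ± 0.20, joined) completed the 10. In 7 of them both loci held 1 gene.

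The other 17 pairs lay within the spread, which does not show that their levels are equal. Kif3a against Kif3b (1.26 ± 0.17, limit 1.34) and Ift122 against Ift140 (0.88 ± 0.02, limit 1.01) lay just inside it. Kif3a exceeded Kif3b beyond the spread in replicate 2 taken alone (1.38), and Bbs4 was lower than Ttc8 beyond it in replicate 1 taken alone (-1.02, against -0.67 ± 0.49 in both). Evc against Evc2 (0.40 ± 0.50), Ift74 against Ift81 (0.45 ± 0.61) and the 3 tectonic pairs (0.21 to 0.64) were well inside, but with the longest listed transcript as the length, described further on, Tctn1 against Tctn2 (-1.19 ± 0.06) and against Tctn3 (-0.91 ± 0.08) had the opposite sign, the first beyond the spread. With that length Kif3a also exceeded Kif3b beyond the spread (1.78 ± 0.26). Ift52 against Ift88 was the 1 pair of opposite sign in the replicates (-0.41 and 0.33).

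**Figure D2:**
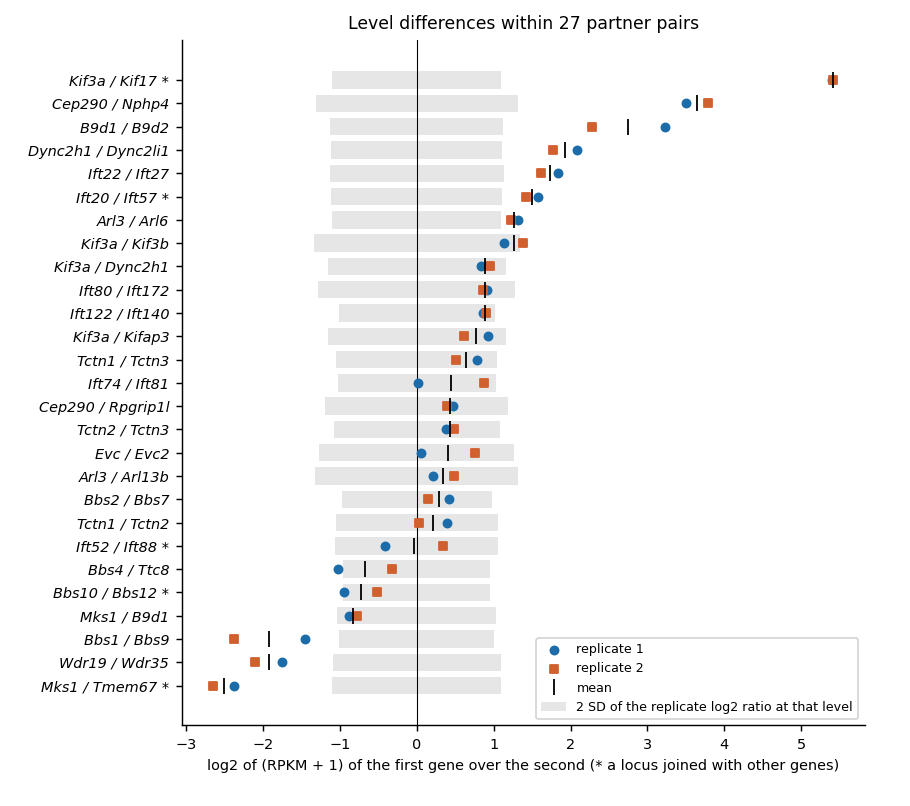
Log2 ratio of the levels of 27 partner pairs in replicate 1 (circles) and replicate 2 (squares), with the mean as a bar and grey bands for 2 SD of the replicate log2 ratio at that level. The means of 10 pairs lie outside their band, from -2.51 for Mks1 against Tmem67 to 5.41 for Kif3a against Kif17.

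The replicates gave similar levels at most members. The log2 ratio of replicate 2 over replicate 1 had a median of -0.28 over the members and -0.38 over the 18335 loci with a mean of 1 RPKM or more. The ratio was below 0 at 40 members and above 0 at 11, where 79.1% of all such loci were below 0. Only Tctn1 was lower in replicate 2 by 2-fold or more (-1.05), which is 1 of 50 members with a mean of 1 RPKM, beside 8.74% of loci. No member was higher by 2-fold, beside 3.03% of loci. The median ratio was 0.02 for the 2 Arl GTPases, -0.15 for IFT-B, -0.18 for the motors, -0.26 for IFT-A with Tulp3, -0.38 for the BBS genes, -0.49 for the transition zone, where 11 of 12 genes were below 0, and -0.67 for the 3 Hedgehog proteins, all below 0. With counts scaled to the library's summed count (CPM), without the length, in place of RPKM, the members' median was -0.53 and that of all loci -0.50, so the members lay slightly above the loci on 1 scale and slightly below on the other. The red cell globins, Afp, and Prl8a2 of the trophoblast and decidua list also differed between the libraries, as given above, and Epcam went the opposite way to Afp. The 14 tissue markers summed to 4067 and 10660 RPKM, largely Hbb-y and Hba-x, and their median was 81.4 and 72.0. The part of these markers in the members' ratios was not tested.

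**Figure D3:**
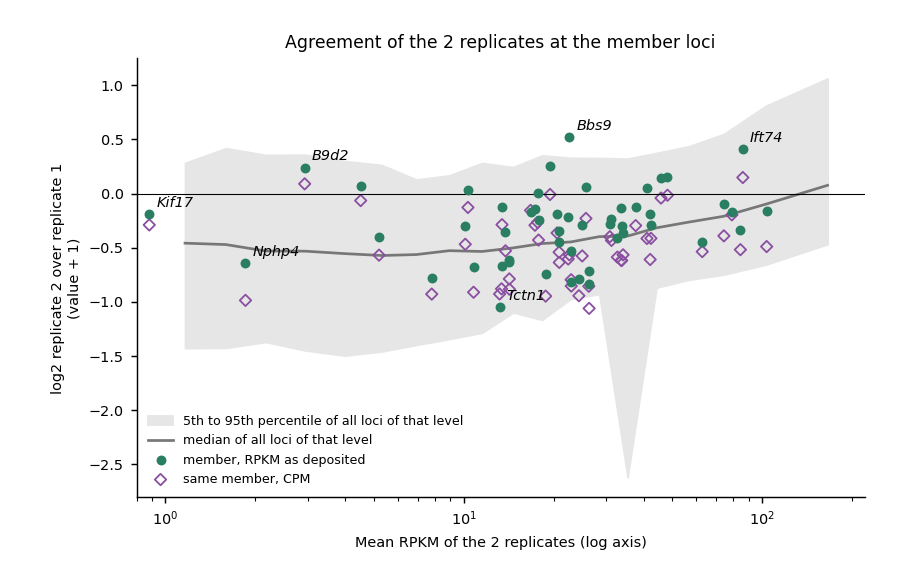
Log2 ratio of replicate 2 over replicate 1 against mean RPKM (log axis) for each member, from RPKM as deposited (filled circles) and from CPM (open diamonds), over the median and the 5th to 95th percentile of all loci of that level. Bbs9 stands at 0.52 by RPKM and at -0.56 by CPM, and the band reaches -2.62 in 1 level group.

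Some of these levels depended on the length by which the authors divided. Reads divided by RPKM give that length once scaled to the library size, taken as the most common value that turns the RPKM of loci with 1 listed transcript into that transcript's length in a later annotation (GENCODE M21). Of 2505 such loci, 28.3% then had that length within 1%, so the annotations also differ. The length was the same in both replicates for the 10 members with 1 listed transcript. Among the 41 with several transcripts it differed by 1.25 times or more at 1 member, Bbs9, beside 11.1% of such loci over all genes. For Bbs9 it was 2253 bases in replicate 1 and 1159 in replicate 2. Its log2 ratio between replicates was 0.52 by RPKM and -0.56 by CPM, units that also differ in library size. The pair of Bbs1 and Bbs9 rests on these RPKM values.

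Ift46 showed the largest gap to its longest transcript. Its length was 646 and 579 bases, while the longest of its 13 listed transcripts has 4169 bases in the later annotation. With RPKM recomputed over the longest listed transcript, which was longer than the authors' length at every member but Ift22, Ift46 had 16.95 and 13.5 in place of 109 and 97.5, and moved from rank 1 to rank 20 of the 51 members. Under the same change Tctn1 had 3.42 and 1.91, now the lowest tectonic in place of the highest (Tctn2 9.40 and 5.44, Tctn3 7.60 and 4.25), Bbs1 1.95 and 1.40, and Nphp4 1.70 and 0.819, below the minimum in replicate 2. Bbs1 has only 1 listed transcript, so its change lies between annotations (1807 bases behind RPKM, 5602 in the later one). The joined locus of Tmem67 (64.5 and 50.7), Ift20 (58.1 and 49.7), Kif3a (50.8 and 49.99) and Ift74 (40.9 and 51.2) then led. Cep290 moved from rank 13 to rank 6, and Cep290 exceeded Rpgrip1l by 1.27, now beyond the spread. The members' median was 16.03 and 11.04, above the 11.4 and 8.16 of protein-coding loci with a mean of 1 RPKM or more, where the deposited medians were near each other. Which length is nearer to the transcripts of the embryo was not tested.

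**Figure D4:**
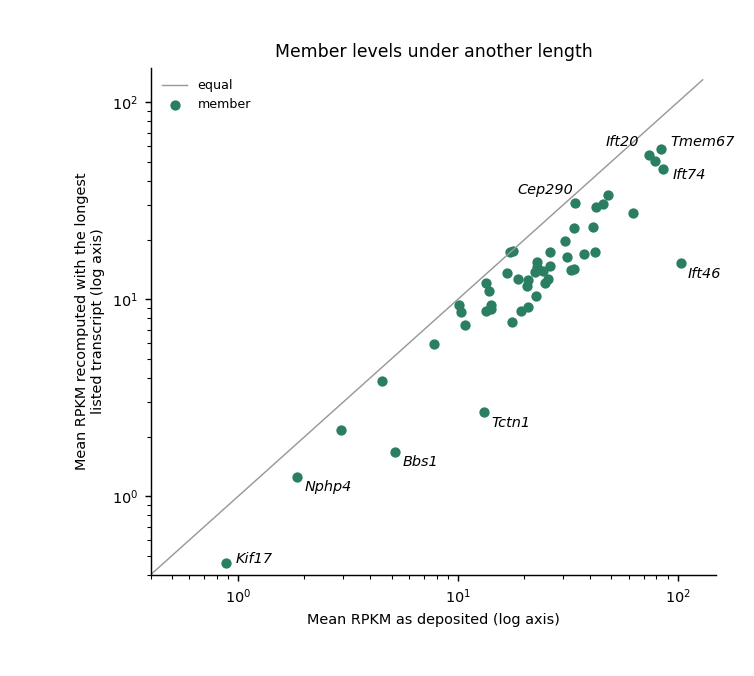
Mean RPKM as deposited (horizontal, log axis) against mean RPKM recomputed with the longest listed transcript (vertical, log axis) for the 51 members, with the line of equal values. Ift46 and Tctn1 lie far below the line, and Tmem67, Ift20, Kif3a and Ift74 are the 4 highest by the longest transcript.

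Genes of the cilium outside the member list were expressed as widely. All 18 of a list of other transport and BBS genes passed the minimum, with a median of 26.8 and 19.7 RPKM. The dynein light chain Dynll1, which has many roles outside cilia, was highest (409 and 673), and Ift70b was lowest (7.79 and 5.50). All 24 other genes of the transition zone and ciliary base passed too, with a median of 33.1 and 23.4. Invs (213 and 226, joined) and Iqcb1 (136 and 187) led, and Anks6 (5.33 and 2.25) was lowest.

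Genes of motile cilia and of the photoreceptor, whose outer segment is a modified cilium, were mostly low. The motile cilium list passed at 11 of 20 loci with a median of 1.93 and 1.18 RPKM, a share (55%) between that of all loci (49.4%) and that of protein-coding loci (65.1%). Its highest members were Ccdc40 (38.3 and 21.04), Ccdc39 (21.4 and 14.6) and Dnai1 (10.0 and 10.5, joined with Enho). The defining factor of motile ciliogenesis, Foxj1, was at 2.75 and 1.23, the multiciliated cell regulators Mcidas and Ccno at 0.510 and 0.112 and at 0.253 and 0.256, and no gene of the list was at 0 in both replicates. The list's summed level was 115 and 77.8 RPKM. The photoreceptor list passed at 2 of 9 loci, Rom1 (3.30 and 2.06) and Pde6b (2.74 and 1.90).

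**Figure D5:**
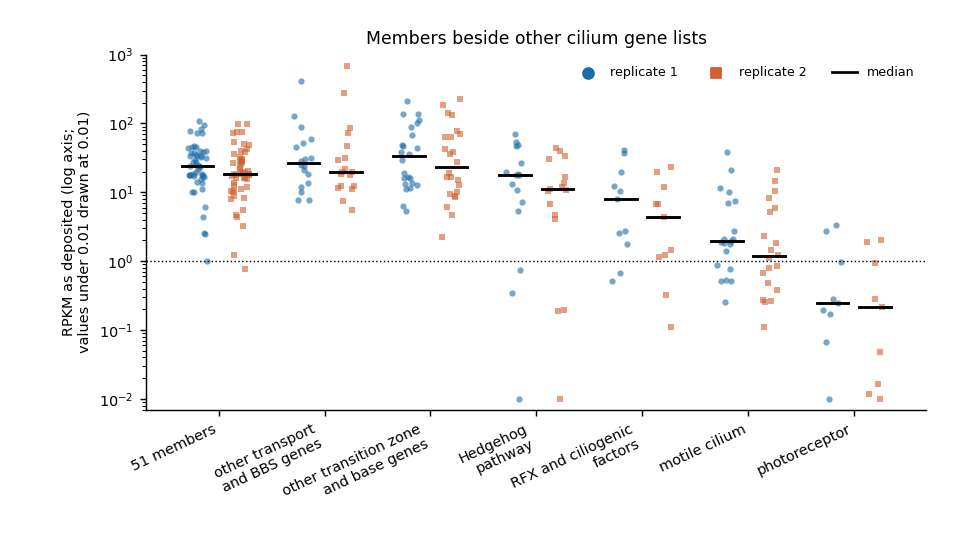
RPKM (log axis) of the 51 members and of 6 other lists in replicate 1 (circles) and replicate 2 (squares), with the median as a line and the minimum of 1 RPKM dotted. The members' medians of 24.2 and 18.6 lie beside those of the other transport and transition zone genes and above those of the motile cilium list (1.93 and 1.18).

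Most Hedgehog genes, whose products act in or near the cilium, were present with the machinery: 13 of 16 passed, with a median of 17.8 and 11.01 RPKM. The transducer Gli3 (69.3 and 44.5), the receptor Ptch1 (54.1 and 40.0) and Smo (47.9 and 33.4) led. The co-receptor Cdon was at 47.4 and 30.1, Gli2 at 26.9 and 16.4, Sufu at 18.7 and 11.3, the ciliary receptor Gpr161 at 13.2 and 10.7 and the pathway target Gli1 at 10.9 and 6.76. Shh read 19.7 and 10.5 in a joined locus, Dhh and Ihh were below the minimum, and Disp1, which releases the ligand, had 0 reads in both replicates. A count of 0 allows up to 0.164 and 0.0255 CPM in the replicates, for counting error only. Whether the 0 of Disp1 reflects the embryo or the assignment of reads to its locus was not tested.

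RFX factors, some of which bind the X-box of many ciliary gene promoters, ranged widely. Rfx3 (40.5 and 23.5 RPKM) and Rfx7 (36.8 and 19.98) were highest, then Rfx5 (19.8 and 11.97, joined), Rfx4 (12.4 and 6.79), Rfx1 (7.92 and 4.39, joined) and Rfx2 (2.54 and 1.15). All 6 had a lower value in replicate 2, as had 79.1% of loci with a mean of 1 RPKM or more.

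X-box-like sequences were found in a larger share of the members' promoters than of all promoters. RefSeq promoter windows (GRCm38.p6, 250 bases before to 50 after a start) were matched by symbol for 46 members, in 50 windows. Ift80, Ift81, Ift122, Dync2li1 and Tmem67 had no entry. An X-box pattern of 14 bases was searched on both strands: GT and, after 2 free bases, CC, then after 3 free bases G, and after 1 free base AAC. It was found in 10 of 50 windows (20%), against 2.17% of all 32851 windows and 2.65% of those of protein-coding genes with a locus passing the minimum. The shorter sequence GTTGCC on either strand, a core of the RFX site that can lie inside that pattern, was in 22 of 50 (44%), against 12.5% of either background. It was also in 9 of 21 windows of the motile cilium list (42.9%) and 5 of 13 of the RFX and ciliogenic factors (38.5%). The share was lower in the Hedgehog list (1 of 14) and the tissue markers (0 of 14). CCAAT, also on either strand, was in 30 of 50 (60%), against 37.4% and 38.0%, but it was also in 8 of 14 windows of the tissue markers (57.1%) and 5 of 6 of the photoreceptor genes (83.3%). The median GC content was 60.8% for the members' windows, 52.7% for all and 60.7% for the expressed genes. Genes can share a promoter or have several windows, so these shares are descriptions without a test, and a match is not a bound site.

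The X-box pattern was found most often in the transition zone genes: 5 of 11 transition zone genes with a window held it, 3 of 10 BBS genes, 2 of 10 IFT-B genes, and none of the 5 IFT-A genes (Tulp3 included), the 5 motor genes, the 2 Arl GTPases outside the BBS group or the 3 Hedgehog proteins. Nphp4 had 3 windows and B9d2 had 2, each with the pattern in 1 of them. Of the other members only Arl6 had more than 1 window. The matches of the transition zone genes, with 1 each from the BBS and IFT-B genes, are shown 5′ to 3′ on the strand that carries the match. Capitals mark the 14 bases of the pattern, and the coordinates given after them are those of the whole printed run.
Tctn1: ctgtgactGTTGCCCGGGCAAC
Mks1: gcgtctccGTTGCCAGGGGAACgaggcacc
B9d2: aacctgctGTTGCCCCAGCAACagtcgggg
Tctn2: gaggaccaGTAGCCATGGTAACctccaatc
Nphp4: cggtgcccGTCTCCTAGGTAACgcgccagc
Bbs7: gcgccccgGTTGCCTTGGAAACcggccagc
Ift57: ggcagccgGTCACCACGGCAACcagacccg

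The Tctn1 match reads the same on both strands and its printed run lies at chr5:122264411-122264432, centred 43 bases after the start of this minus-strand gene and at the edge of the window. That of Mks1 (plus strand, chr11:87853183-87853212, centred at -17) and that of Bbs7 (minus strand, chr3:36613489-36613518, centred at -114) fit the pattern on either strand and are written on the gene's. The B9d2 match (plus strand, chr7:25680788-25680817) is centred 23 bases after the start. Tctn2 (chr5:124598679-124598708, at -55) and Ift57 (chr16:49699199-49699228, at -80) are plus-strand genes whose match is on the minus strand. That of Nphp4 (plus strand, chr4:152477903-152477932) is centred at -224. These coordinates are of GRCm38 and were not set against the authors' mm9 values, which were joined to them by gene name only.

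Members with the X-box pattern were not those with the highest levels. The 10 with it had a median of 15.7 and 9.62 RPKM and at most 25.1 in replicate 1, while the 36 without it had a median of 28.5 and 20.1 and reached 109. The 10 include the lowest transition zone genes, Nphp4 and B9d2. Among other lists, the pattern was in 5 of 20 genes of the transition zone and ciliary base, 4 of 17 motile cilium genes and 1 of 17 other transport genes. It was in none of 12 Hedgehog genes and none of 13 tissue markers.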

How the data were processed

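Libraries from total RNA were sequenced on an Illumina instrument, per the labels' protocols. The submitters' processing notes name TopHat and mm9 without a version. For the read counter, the filters and strand, nothing is stated in the labels or headers. Each file gives RPKM and read counts per locus, deposited by the authors, per the file headers. Rows of 1 gene set were summed (34676 rows, 34624 loci), and 32642 of 37681 identifiers (86.6%) had a symbol. RPKM was the main unit. CPM was computed from the authors' counts over their sum, and with 1 group there was nothing for a count test to compare. Without strand, antisense reads cannot be told apart: by GENCODE M21, 6 members overlap exons of a gene that the authors did not join, 4 of them a protein-coding gene (Bbs4, Cep290, Kif7 and Tctn1). Python 3.11.15, pandas 2.3.3 and scipy 1.17.1 were used. Transcript lengths came from GENCODE M21, which gave one for 246 of 270 listed transcripts. The 2-fold count was tested on simulated data with counting error only: of 18335 loci, it found 102 of 102 with a 4-fold decrease and 0 of 11560 without, at 10 RPKM or more. The simulated decrease was larger than the 2-fold rule, and the spread between replicates was not simulated. The result therefore gives no error rate for the count in the real libraries.

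Members may all be named. Of the other lists, the 3 highest, the lowest and the RFX and Hedgehog genes were to be named, some of which are not reported here. Other genes named (Actc1, Prrx1, Hba-x, Afp, Epcam, Tpbpa, Psg21, Foxj1, Mcidas, Ccno) are defining markers. The members and lists were chosen with earlier results of these data known. The pairs' level groups were 20, over loci with a mean of 1 RPKM or more. Alternatives were the minimum, pseudocount, scaling, unit, joined loci and each replicate left out. The longest-transcript length and the promoters of expressed genes were added after the data were seen. Proteins were not analysed here.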

Additional observations from a re-analysis of the deposited data

How the results depend on the processing

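The count of members passing stayed within 1.5 times of 50 under all alternatives run (42 to 51), and 50 and 51 passed without replicate 1 and without replicate 2. The members' median, 21.4 RPKM as the mean of both replicates, was 18.6 and 24.2 with 1 replicate left out and 13.5 with the longest listed transcript, whose length was longer at every member but Ift22. The 1 member lower by 2-fold in replicate 2 became 2 (with Nphp4) with a pseudocount of 0.01 RPKM, where 15.5% of loci were lower, and 0 with replicate 2 rescaled to the median of replicate 1 or with the longest transcript. In CPM it was also 1, but Evc2 in place of Tctn1. Of the 27 pairs, 9 to 13 lay beyond the spread (11 with either replicate left out, 13 with the longest transcript). Arl3 against Arl6 was within it with a pseudocount of 0.01 (1.31). None of the 10 pairs changed sign. Of the others, Tctn1 against Tctn2 (-1.19, then beyond the spread), Tctn1 against Tctn3 (-0.91), Bbs2 against Bbs7 (-0.11) and Evc against Evc2 (-0.01) had the opposite sign with the longest transcript. At 5 RPKM, 5 RFX and ciliogenic genes, 6 motile cilium genes and 0 photoreceptor genes passed, in place of 9, 11 and 2. With 1 replicate left out, these lists had 9, 11 to 14 and 2, the Hedgehog list 13, the other transport list 18 and the other transition zone list 24. No paired analysis was possible because the series has 1 group. The depth of replicate 1 limits the low members: B9d2 rested on 27 reads (1.71 to 3.78 RPKM) and Kif17 on 25.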
